A study of Drosophila melanogaster with 35 samples.

Results

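Su(var)3-9 reached 511 of 9993 array probes (5.11%) at which HP1 was low, in DamID profiles of Kc167, an established cell line from Drosophila melanogaster embryos. The probes were chosen by the log2 ratio of the fusion to Dam alone: a median of at least 0.6 over the 3 Su(var)3-9 arrays and a mean of at most 0.2 over the 4 HP1 arrays of cells with no knock-down. The files do not state the base of the logarithm, and 2 was assumed. The choice used those 7 arrays, so the levels of Su(var)3-9 and HP1 below are descriptions. For comparison, 499 probes had both values at 0.6 or more, and 174 had HP1 at 0.6 or more with Su(var)3-9 at 0.2 or less.

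In DamID, a chromatin protein is fused to the bacterial adenine methyltransferase Dam, the DNA around its binding sites becomes methylated, and those fragments are set against fragments from cells with Dam alone on a 2-colour array. Su(var)3-9 is the histone methyltransferase that places methyl groups on lysine 9 of histone H3 in heterochromatin. HP1 binds that mark through its chromodomain, and both are known for silencing around the centromeres. HP3 (the product of Lhr), HP4, HP5 and HP6 were picked by the study as interaction partners, and Jra, the fly Jun of the AP-1 factor, was its control outside heterochromatin.

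All 11 groups were Kc167 cells carrying a transfected plasmid with a full-length protein fused to Dam, against cells with the Dam plasmid. In cells with no knock-down, HP1, HP3, HP4 and HP5 had 4 arrays each, and Su(var)3-9, HP6 and Jra had 3 each. HP3 was profiled after knock-down of HP1 (3) and of white (3), an eye colour gene that served as the control, and HP6 after knock-down of HP1 (2) and of white (2). A fusion is present besides the cell's own protein, and DamID gives neither RNA levels, against which the cell line could be checked, nor the strength of the knock-down. The labels do not say that replicates were separate cultures, so p-values measure the spread between arrays, which may be technical. They also do not say whether one Dam-alone preparation served on several arrays, so the proteins' values are set side by side.

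2 arrays went against their labels or stood apart. The array labelled HP3 replicate 2 read 0.09 at Lhr, the gene carried on the HP3 plasmid, where the HP3 arrays reached up to 6.19. The array labelled HP6 replicate 3 read 4.81 at HP4, inside the range of the HP4 arrays (3.71 to 5.01), where the next highest array of another fusion read 1.25. Results for HP3 and HP6 are therefore given with and without these 2 arrays. Of the 511 probes, 506 had enough values for the limma model, which was fitted to all 9934 such probes and 35 arrays, and "bound" below means above 0 at a Benjamini-Hochberg adjusted p under 0.05.

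Most of the 511 probes lay near the lower limit for Su(var)3-9, and a few were far above it. The Su(var)3-9 median ran from 0.60 to 3.86 with a middle value of 0.74. It was under 0.8 at 344 probes and at least 1 at 52. All 3 arrays reached 0.6 at 232 probes, while the lowest array was at or below 0 at 11. The 3 arrays had almost the same middle level over the set, at 0.75, 0.71 and 0.75.

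HP1 was less even. The 4 HP1 arrays had medians of -0.04, 0.52, -0.13 and -0.31 over the set. HP1 replicate 2 stood above the others and reached 0.6 at 212 of the probes (41.5%), against 18, 21 and 0 probes on replicates 1, 3 and 4. HP1 was at most 0.2 on every array at 73 probes, so "low for HP1" describes the mean over arrays. The named probes just inside the Su(var)3-9 limit were CG32085 (0.6), CG10184 (0.6) and RpS7 (0.601), and just outside lay CG13243 (0.599), PpN58A (0.598) and tio (0.597). At the HP1 limit, DIP-zeta (0.2), Cap-G (0.199) and CG7542 (0.199) were inside, and CG14423 (0.201), yellow-e3 (0.203) and Arpc3B (0.204) outside.

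**Figure D1:**
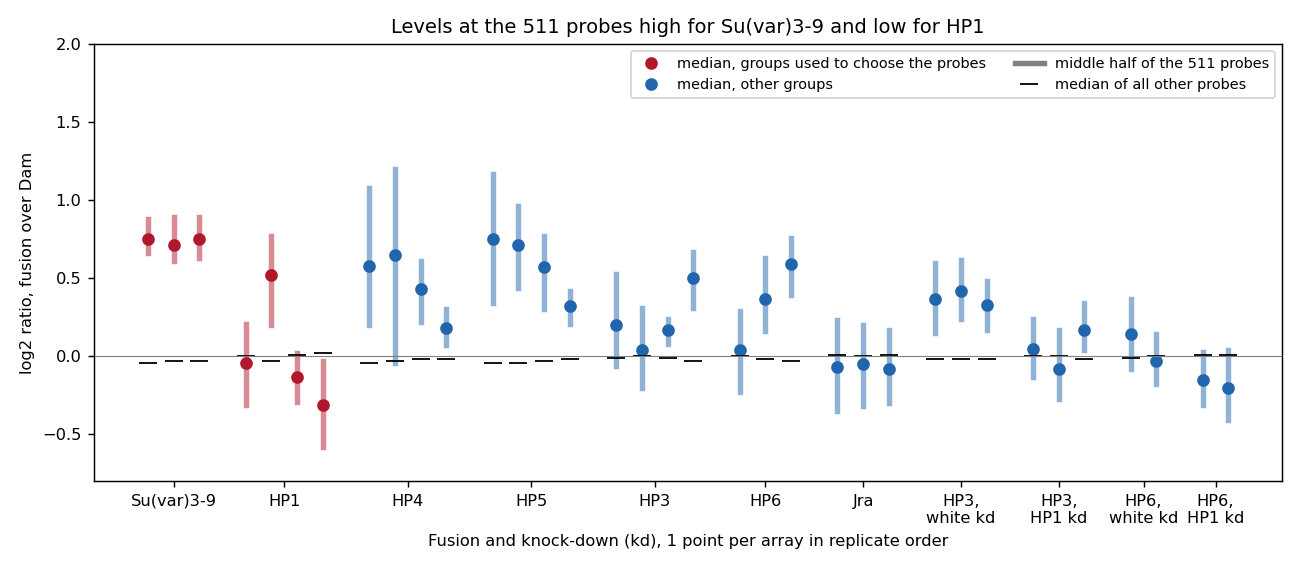
Each point is the median log2 ratio of fusion over Dam on 1 array over the 511 probes, with a bar for the middle 50% of the probes and a dash for the median of all other probes. All 8 HP4 and HP5 arrays lie above 0, the 3 Jra arrays lie between -0.08 and -0.05, and HP1 replicate 2 (0.52) stands above the other HP1 arrays.

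Muscle myosin, a SAGA subunit and the transcription factor salm were among the named genes with the highest Su(var)3-9. The highest probe of all, which carries no gene name here, read 3.87, 3.51 and 4.22 on the 3 Su(var)3-9 arrays. Mlc2, the regulatory light chain of muscle myosin, read 1.52, 2.04 and 2.18, and its 4 HP1 values were -0.12, -1.05, -0.69 and -0.75. Spt3, a subunit of the SAGA histone acetyltransferase complex, read 1.35, 2.04 and 2.21. Both genes were high on each Su(var)3-9 array, and Mlc2 was below 0 on each HP1 array.

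The zinc-finger gene salm, a patterning factor of wing and eye, read 0.85, 1.48 and 1.49 for Su(var)3-9. CG3638 read 1.94, 2.50 and 1.89. Other high medians were uneven between arrays. mRpL33, a protein of the mitochondrial ribosome, read 4.76, 2.60 and -0.35, Alg1, a mannosyltransferase of glycosylation, 1.64, 0.20 and 3.26, and spab 5.12, 2.02 and 2.03. The remaining named genes among the 10 highest were dtn, Alms1a and CG6231, with medians of 2.11, 1.75 and 1.63.

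The set held genes of small secreted and structural proteins and of ribosomes, and none of the classical pericentric genes. Of the 511 probes, 448 had 1 gene name, 9 had several and 54 had none. RefSeq (Release 6) listed 444 of them, which stand for 428 of 7610 measured genes. None of the 12 probes of known pericentric genes was in the set, and 11 of these were high for both proteins. Genes of odorant-binding and chemosensory proteins gave 8 of 23 probes (34.8%), muscle genes 9 of 37 (24.3%), cytoplasmic ribosomal proteins 10 of 44 (22.7%) and mitochondrial ribosomal proteins 14 of 74 (18.9%). The muscle probes stood for 7 of 21 genes, since bt alone gave 3 probes.

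Serine proteases gave 5 of 29 probes (17.2%), though SP2353, which the name pattern took in, is not known as a protease. Cuticle and peritrophic proteins gave 11 of 70 (15.7%) and the proteasome 6 of 39 (15.4%). Of the proteasome probes, those of Rpn12R, Prosbeta4R1, Prosalpha4T1 and Rpt4R came from adult testis clones, with names in AT. Only those of Prosalpha3 and Prosalpha6 came from another library (RE), and Prosalpha4T1 is counted under testis genes too. Few or no probes of several other groups were in the set: 1 of 59 for cytochromes P450, 1 of 40 for synapse and ion channel genes (GluRIIA), 1 of 30 for Polycomb targets and homeobox genes (salm), and 0 of 80 for translation factors and tRNA synthetases. Testis genes gave 3 of 28 (ProtB, aly and Prosalpha4T1), female germline genes 0 of 15 and accessory gland genes 1 of 10. Immune genes gave 2 of 20, from a list that left out the Bomanin immune peptide genes of the set. AP-1 and JNK pathway genes gave 1 of 19 (grnd, a TNF receptor) and heterochromatin factors 1 of 25 (HP4 itself). These shares are to be read against the 5.11% of all probes and beside gene length. Of named probes of genes up to 1835 bases long, 11.2% were in the set. Median gene length was 992 bases in the chemosensory list, 1086 and 925 in the cytoplasmic and mitochondrial ribosomal lists, and 952 for proteases. It was 2223 for cytochromes P450, 2343 for translation genes, 11626 for Polycomb targets and 20435 for synapse genes, but 5005 for muscle genes. The part of gene length was not tested.

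The genes were short. The median length of the 428 genes in RefSeq was 1244 bases (middle 50%: 870 to 2221), against 2617 over all measured genes and 6466 over the genes high for both proteins. Of the 428, 71.3% were under 2000 bases, against 37.5% of all measured genes. When named probes were split into tertiles by gene length, the set took 11.2% of the probes of the shortest tertile (up to 1835 bases) and 2.35% and 2.43% of the middle and longest tertiles.

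Source libraries of the cDNA clones differed as well. The set took 113 of 904 probes (12.5%) from adult testis clones, with names in AT, and 92 of 739 (12.4%) from head clones in RH, but 36 of 2492 (1.44%) from embryo clones in LD. Libraries of like tissue differed too: the other head library, GH, gave 46 of 1903 (2.42%) and the other embryo library, RE, 158 of 2031 (7.78%). Clone origin and gene length moved together, with a median length of 1110 bases for the AT clones of the set and 2474 for its LD clones. Their part in the choice of probes was not tested. HP1 replicate 2 read a median of 0.16 over the named probes of the shortest tertile and -0.10 and -0.04 over the other tertiles, while HP1 replicate 4 read -0.07, 0.02 and 0.04 in the same order.

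The probes lay on all arms. The set took between 4.35% (X) and 6.10% (2L) of the probes of the 5 large arms. On chromosome 4 it took 6 of 61 probes (9.84%), where 32 of the 61 (52.5%) were high for both proteins. CG31997, one of the chromosome 4 genes, had both of its probes in the set, with Su(var)3-9 medians of 0.81 and 0.68. The 6 probes therefore stand for fewer genes.

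Some of the genes were neighbours. Among measured genes in RefSeq order, 87 of the 428 lay in 37 runs of 2 or more, when 5.62% of the measured genes were in the set. The longest runs held 4 genes: CG12909, Ndg, CG46298 and CG12902 on arm 2R, and CG10252 to CG10365 and CG4960 to Acam on 3R. Runs of 3 held the Bomanin immune peptide genes BomS4, BomBc2 and BomS2, and Gasp with the odorant-binding genes Obp83cd and Obp83g. Paralogues lie side by side in several of these runs, and cDNA probes can cross-hybridise between near-identical copies.

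Where a gene had several probes, they often fell on different sides of the limits. Of 72 such genes, 14 had all their probes in the set, among them CG7296, CG9928 and Rack1, the ribosome-bound scaffold protein. The other 58 genes had 65 probes outside it. These had a median Su(var)3-9 of 0.45, with 56 under the Su(var)3-9 limit and 26 over the HP1 limit. CG31249 had its other probe high for both proteins: its probe in the set read 0.70 for Su(var)3-9 and -0.05 for HP1, while the other read 2.79 and 3.18.

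HP5 was bound at most of these probes. It was above 0 at 313 of 506 (61.9%), against 18.4% of all probes, and below 0 at 5 (0.988%, against 18.7%). The 4 HP5 arrays had medians of 0.75, 0.71, 0.57 and 0.32 over the set, and other probes lay near 0 on each. The fitted HP5 level was above 0 at 96.0% of the probes, with a median of 0.57 against 0.00 over all probes.

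HP4 was bound at fewer. It was above 0 at 252 probes (49.8%), against 19.7% of all probes, and below 0 at 6 (1.19%, against 21.8%). The HP4 arrays had medians of 0.58, 0.65, 0.43 and 0.18 over the set. In both groups replicates 1 and 2 carried the fusion in Cy3 and replicates 3 and 4 in Cy5, and the Cy5 arrays were lower, yet all 8 medians were above 0. Both proteins were bound at 218 probes (43.1%, against 13.2% of all probes). HP5 was bound without HP4 at 95, HP4 without HP5 at 34, and neither at 159, counts whose shares over all probes were not worked out. Of all 9934 probes tested, HP4 was bound at 1958, HP5 at 1823 and both at 1316. Deviations of same-numbered HP4 and HP5 arrays from their group means correlated at 0.549, 0.0497, -0.0484 and 0.257 with the dye effect removed. The calls of both proteins may therefore share noise between arrays, which was not tested.

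These counts depended on single arrays and on the model. Without HP4 replicate 2 the HP4 share was 32.6% and without HP5 replicate 1 the HP5 share was 40.3%. With the 4 arrays of one protein fitted alone, 29 probes (5.68%, against 4.44% of all probes) passed for HP4 and 68.7% (against 19.2%) for HP5. Among the 73 probes with HP1 at most 0.2 on every array, of which 71 were tested, HP4 was bound at 47.9% and HP5 at 40.8%.

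**Figure D2:**
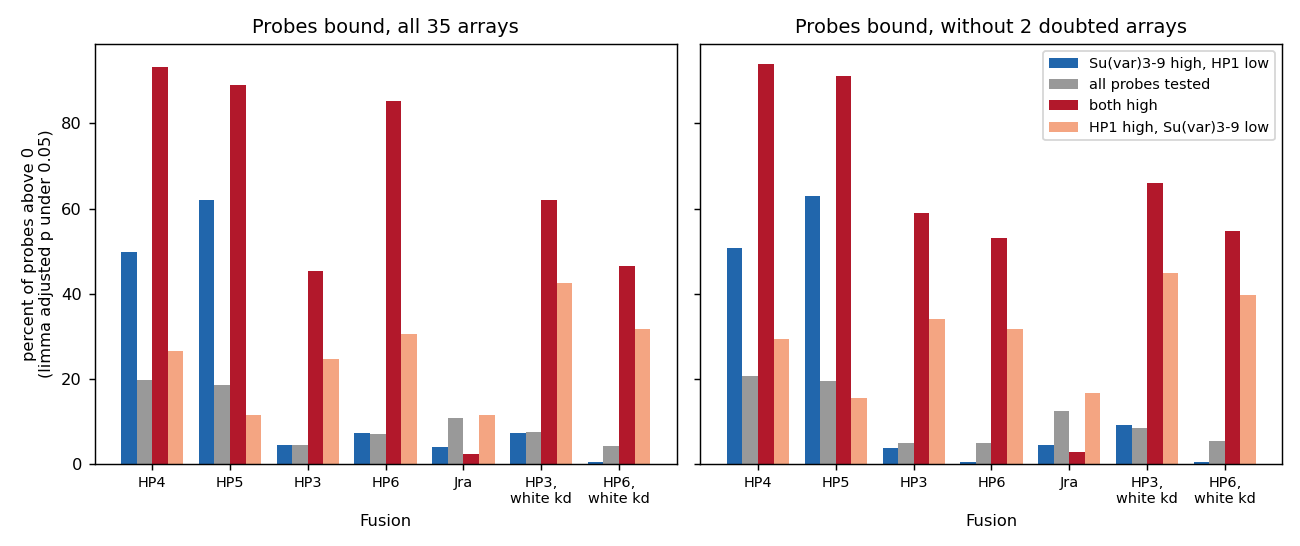
Bars give the percentage of probes above 0 (limma, adjusted p under 0.05) for each fusion, on the left with all 35 arrays and on the right without the arrays labelled HP3 replicate 2 and HP6 replicate 3. For the probes high for Su(var)3-9 and low for HP1, HP4 (49.8%) and HP5 (61.9%) lie above all probes tested (19.7% and 18.4%) and below the probes high for both (93.3% and 89.1%).

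The named genes with the highest HP5 included beat-VI, Gart and GluRIIA. beat-VI, a cell-surface protein of the beaten path family, read 2.83, 1.62, 2.04 and 0.17 on the HP5 arrays (fitted level 1.67, SE 0.24, adjusted p = 4.64e-06). Gart, an enzyme of purine synthesis, read 2.78, 1.24, 1.12 and 0.51 (1.41, SE 0.33, adjusted p = 0.00141). GluRIIA, a glutamate receptor subunit of the neuromuscular junction, read 3.48, 1.40, 0.29 and -0.10 (1.27, adjusted p = 0.003). All 3 genes were highest on replicate 1, and GluRIIA was near 0 on replicates 3 and 4. Without replicate 1, GluRIIA lost its call (0.64, adjusted p = 0.128), while beat-VI, Gart and CG10979 kept theirs with any 1 HP5 array left out.

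CG7296 was bound by both proteins at both of its probes. One probe read 2.16, 1.70, 1.25 and 0.42 for HP4 (1.38, adjusted p = 0.000137) and 2.03, 1.02, 1.23 and 0.61 for HP5 (1.22, adjusted p = 0.000599). Its other probe had means of 1.19 ± 0.76 (SD, n = 4) for HP4 and 1.11 ± 0.41 for HP5. All of these values were above 0.

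For HP4, the highest value was at its own gene, which the transfected plasmid carries: 5.01, 4.81, 4.74 and 3.71. Next came CG14356, which read 2.21, 2.31, 0.84 and 0.20 (1.39, SE 0.20, adjusted p = 3.33e-06). Cap-G, a condensin subunit, read 3.25, 1.57, 0.54 and -0.05 (1.33, adjusted p = 0.000952), and PH4alphaNE1, a prolyl hydroxylase, 1.86, 2.36, 0.58 and 0.30 (1.28, adjusted p = 3.33e-06). All 4 genes kept their calls with any 1 HP4 array left out, though Cap-G was at 0.78 without replicate 1 and lost its call with only the HP4 arrays fitted. In each of the 4 the Cy5 arrays were the lower ones.

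A few genes were below 0 for HP4 and HP5 although Su(var)3-9 was high. Tctp, a growth regulator, read -1.92, -0.94, -1.37 and -0.74 for HP5 (-1.24, adjusted p = 0.000654) and 1.03, 1.17 and 1.61 for Su(var)3-9. Mlc2 read -1.18, -1.02, -1.17 and -0.49 for HP5 (-0.96, adjusted p = 0.000116) and -0.34, -1.03, -0.57 and -0.35 for HP4 (-0.57, adjusted p = 0.0102). ATPsynC, a subunit of the mitochondrial ATP synthase, read -0.58, -1.05, -1.16 and -0.35 for HP4 (-0.78, adjusted p = 0.000911). Each HP5 array of Tctp and each HP4 and HP5 array of Mlc2 was below 0. The HP5 calls of Tctp and Mlc2 and the HP4 call of ATPsynC were kept with any 1 array left out, and Mlc2 lost its HP4 call without replicate 2 (-0.44, adjusted p = 0.0896).

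Spt3 was also below 0 for both (HP4 -0.73, adjusted p = 0.0123; HP5 -0.58, adjusted p = 0.049), and CG32512 for HP5 (-0.90, adjusted p = 0.00876). Spt3 lost its HP5 call without any 1 of the 4 arrays and its HP4 call without replicate 2 (-0.37, adjusted p = 0.227), and CG32512 lost its call without HP5 replicate 1 (-0.75, adjusted p = 0.0759). Across the set, HP5 was bound at 38.0% of the 50 tested probes with a Su(var)3-9 median of at least 1, at 70.4% of the 115 between 0.8 and 1, and at 62.5% of the 341 between 0.6 and 0.8. For HP4 the shares were 30.0%, 57.4% and 50.1%.

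Most chemosensory and cuticle probes of the set were bound by HP5. All 8 odorant-binding probes were bound by HP5 and 5 by HP4. Obp99c read 1.46, 1.34, 0.94 and 0.40 for HP5 (mean 1.03 ± 0.48, SD, n = 4; adjusted p = 3.84e-05) and 1.53, 0.83, 0.65 and 0.22 for HP4. The 2 probes of Obp56d had HP5 means of 0.73 and 0.97 (adjusted p = 0.0469 and 0.000165). All HP5 values of these 3 probes were above 0. Over all 23 probes of the list, in the set or not, HP5 was bound at 16 and below 0 at 0.

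Of the 11 cuticle probes, 9 were bound by HP5 and 7 by HP4, and over all 70 probes of the list 28 and 29 were. TwdlP, a Tweedle cuticle protein, read 2.33, 0.88, 0.93 and 0.55 for HP5 (adjusted p = 0.000225), and Cpr78E read 1.73, 1.61, 0.63 and 0.25 for HP4 (adjusted p = 4.59e-05). Gasp, a chitin-binding protein of the tracheal cuticle, did not pass for either (0.17 and 0.25). Of the serine protease probes, 3 of 5 were bound by HP5 and 4 by HP4, among them the digestive enzyme genes Jon25Bi and Jon25Bii. Over all 29 probes of that list, HP5 was bound at 14 and HP4 at 16. Both genes of the immune list in the set were bound by HP5, Mtk with 1.18 ± 0.63 (adjusted p = 0.000852) and DptB with 1.13 ± 0.69 (adjusted p = 0.00103). The Bomanin genes of the set were not in that list. Over all 20 probes of the immune list, HP5 was bound at 4.

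Ribosomal protein genes were mixed. Of the 10 cytoplasmic probes, 7 were bound by HP5 and 5 by HP4, near the shares of the whole set (61.9% and 49.8%). Over all 44 probes of that list, HP5 was bound at 11 and HP4 at 10. RpL10Ab read 2.08, 0.55, 1.47 and 0.59 for HP5 (adjusted p = 0.000397), and RpS18 had an HP4 mean of 0.02 (adjusted p = 0.962). RpL24-like and RpL7-like, which the name pattern took in, were bound by both. Of the 14 mitochondrial probes, 9 were bound by HP5 and 6 by HP4, with mRpL11 at 2.09, 1.92, 0.48 and 0.15 for HP4 (adjusted p = 2.69e-05). Over all 74 probes of the mitochondrial list, HP5 was bound at 27 and HP4 at 23.

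Some muscle and proteasome genes of the set carried HP4 or HP5. Of the 8 tested muscle probes, HP4 and HP5 were each bound at 3, and over all 36 tested probes of the list at 11 and 9. Zasp52, a Z-disc protein, and Mp20, a calponin-like muscle protein, were bound by both (HP5 means 0.74 and 0.68), while bt, a titin-like kinase with 3 probes in the set, passed for neither at its 2 tested probes. Of the 6 proteasome probes, most of them from testis clones, HP5 was bound at 2 (Rpn12R and Prosalpha6) and HP4 at 0. Prosbeta4R1 was below 0 for HP4 (-0.55, adjusted p = 0.0325). Over all 39 proteasome probes, in the set or not, HP5 was bound at 10 and HP4 at 8.

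Within each tertile of gene length, HP4 and HP5 were bound more often in the set than outside it. HP5 was bound at 70.0% of the tested probes of the set in the shortest tertile against 22.0% of the others, at 56.2% against 10.5% in the middle tertile, and at 45.2% against 14.8% in the longest. For HP4 the shares were 55.1% against 21.1%, 53.1% against 14.0% and 32.9% against 18.0%. These are counts of calls with no test between them.

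**Figure D3:**
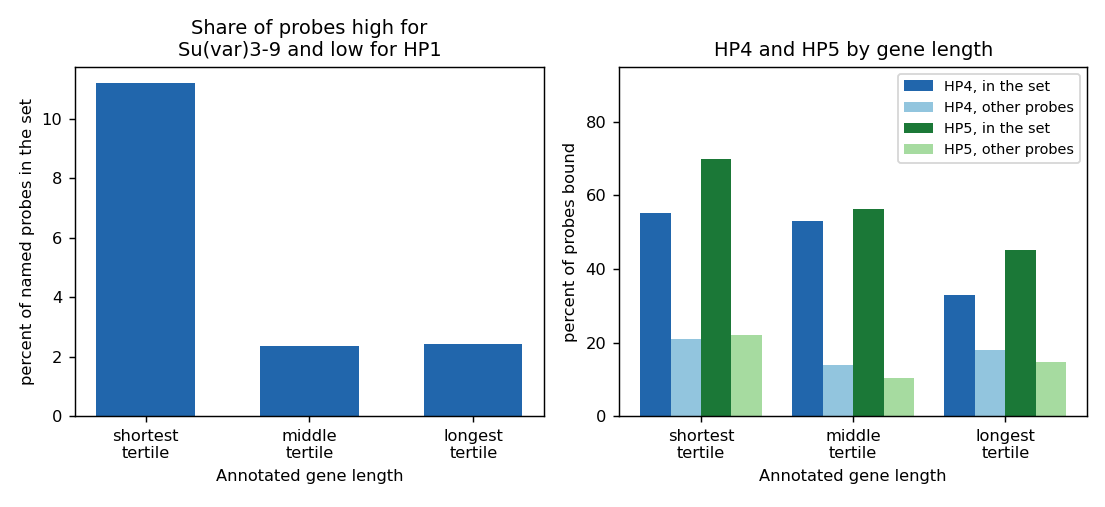
Left, the percentage of named probes that belong to the set, by tertiles of annotated gene length (up to 1835 bases, up to 4179 bases, longer). Right, the percentage of tested probes bound by HP4 and HP5 in each tertile, inside the set and outside it; in the shortest tertile HP5 was bound at 70.0% inside and 22.0% outside.

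With all arrays fitted, HP3 and HP6 were bound at about the same share of these probes as of all probes. For HP6 this did not hold without the 2 doubted arrays, where its share was far below that of all probes. In the fit with all arrays, HP3 was above 0 at 22 probes (4.35%, against 4.38% of all probes) and below 0 at 1 (0.198%, against 2.31%). HP6 was above 0 at 36 (7.11%, against 7.05%) and below 0 at 0 (0%, against 3.33%). Without the 2 doubted arrays HP3 was bound at 19 probes (3.75%, against 4.90%), of which 5 were shared, and HP6 at 2 (0.395%, against 4.78%). The probes high for both HP1 and Su(var)3-9 gave 45.4% for HP3 and 85.3% for HP6.

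The levels of both proteins were nonetheless shifted above 0 at most probes. HP3 arrays had medians of 0.20, 0.04, 0.17 and 0.50 over the set, and HP6 arrays 0.04, 0.37 and 0.59. The lowest HP3 median belonged to the array labelled HP3 replicate 2 and the highest HP6 median to the array labelled HP6 replicate 3. The fitted level was above 0 at 86.4% of the probes for HP3 (median 0.23) and at 91.7% for HP6 (median 0.34, and 0.18 without the 2 arrays). In cells with white knocked down, HP3 had medians of 0.37, 0.42 and 0.33 and was bound at 36 probes (7.11%, against 7.35%) and below 0 at 0 (against 2.88%), and HP6 had 0.14 and -0.03 and was bound at 2 (0.395%, against 4.21%).

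The counts for HP3 and HP6 also moved with the settings. With each group fitted alone, HP3 passed at 0 probes (0% of all probes too), HP6 at 24.1% (against 10.3%), and HP3 in white knock-down cells at 59.5% (against 18.8%). With all arrays scaled to one spread, HP3 passed at 22.3% (against 11.1%) and HP3 in white knock-down cells at 37.5% (against 14.4%).

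Most of the probes bound by HP3 or HP6 also carried HP4 and HP5: 18 of the 22 and 32 of the 36, where 43.1% of the set carried both. Without the 2 doubted arrays these counts were 17 of 19 for HP3 and 0 of 2 for HP6, against 45.1% of the set. The same shares over all probes bound by HP3 or HP6 were not worked out, so this overlap may not be particular to the set. Of the probes high for both HP1 and Su(var)3-9, HP4 was bound at 93.3% and HP5 at 89.1%. CG32266 read 0.89, 1.88, 0.27 and 0.58 for HP3 (0.91, SE 0.19, adjusted p = 0.0028). CG9928 read 0.85, 1.50, 0.27 and 0.77 (0.84, adjusted p = 0.0276), and the junctophilin gene jp 0.98, 1.15, 0.32 and 0.84 (0.82, adjusted p = 0.0139). In these 3 genes and in beat-VI (0.93, adjusted p = 0.0152) and Mf, a myofilament protein (0.82, adjusted p = 0.0103), the array labelled HP3 replicate 2 was the highest. Ptp4E, a receptor tyrosine phosphatase, was below 0 (-1.75, -0.51, -0.05 and 0.04; -0.57, adjusted p = 0.045), with its lowest value on replicate 1. Without the 2 doubted arrays CG32266 and jp kept their calls, and beat-VI (0.72, adjusted p = 0.0878), CG9928 (0.68, adjusted p = 0.117), Mf (0.47, adjusted p = 0.0699) and Ptp4E (-0.59, adjusted p = 0.066) lost theirs. Leaving out HP3 replicate 2 alone also ended the calls of CG32266 (0.63, adjusted p = 0.0521) and jp (0.72, adjusted p = 0.0639), and without replicate 1 Ptp4E was at -0.16.

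For HP6, CG31760 read 2.19, 1.02 and 1.25 (1.49, SE 0.40, adjusted p = 0.0147), CG32299 1.61, 1.09 and 0.30 (0.99, adjusted p = 0.00496), and the cuticle gene Cpr47Ee 0.60, 1.24 and 1.10 (0.89, adjusted p = 0.00673). RpL39 read 0.35, 1.08 and 1.21 (0.87, adjusted p = 0.0113). All of these values were above 0. The call at HP4 itself came from 0.04, 0.15 and 4.81, that is, from the array labelled HP6 replicate 3. Without the 2 doubted arrays HP4 was at 0.03 (adjusted p = 0.982), and CG31760 (1.62, adjusted p = 0.063), Cpr47Ee (0.60, adjusted p = 0.22) and RpL39 (0.65, adjusted p = 0.183) lost their calls. CG32299 kept its call there and lost it without HP6 replicate 1 (0.70, adjusted p = 0.113).

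Jra, the control, was not raised over the set. It was above 0 at 20 of the 506 probes (3.95%, against 10.8% of all probes) and below 0 at 20 (3.95%, against 6.30%), and its arrays had medians of -0.07, -0.05 and -0.08. Lamtor5, a subunit of the Ragulator complex at lysosomes, read 1.55, 1.90 and 1.63 (1.68, SE 0.21, adjusted p = 2.73e-06), and CG17272 1.70, 1.69 and 1.11 (1.51, adjusted p = 3.69e-07). PrBP, a prenyl-binding protein, read 0.72, 1.00 and 0.63 (0.80, adjusted p = 0.00193). These 3 genes were high on every Jra array, whereas Osi12 passed on 5.00, 0.68 and -0.29. Osi12 lost its call without replicate 1 (0.20, adjusted p = 0.851) and PrBP without replicate 2 (0.68), while Lamtor5 and CG17272 kept theirs with any 1 array left out.

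At the other end, mRpL37 read -1.79, -1.91 and -1.81 for Jra (-1.78, SE 0.31, adjusted p = 0.000126). Ndg, the basement membrane protein nidogen, read -1.83, -0.70 and -1.50 (-1.36, adjusted p = 0.000577). Both were below 0 on each Jra array and, on average, for HP1 too (-1.12 and -0.93). hgo, an enzyme of tyrosine breakdown, CG10680 and CG6304 had Jra levels between -0.81 and -0.78. The calls of mRpL37 and Ndg were kept with any 1 array left out, and those of the other 3 genes were lost without replicate 2. The gene grnd had a Jra mean of -0.10 ± 0.21 (SD, n = 3).

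When HP4 and HP5 together were set against HP3 and HP6, few single probes differed. The difference was above 0 at 6 probes (1.19%, against 2.02% of all probes) and below 0 at 2 (0.395%, against 5.22%), with a median of 0.23 against -0.02. DptB, an antimicrobial peptide, had HP4 and HP5 means of 1.27 and 1.13 and HP3 and HP6 means of 0.19 and 0.53 (difference 0.85, SE 0.27, adjusted p = 0.0482). asrij, an endosomal protein of blood cells, read 1.15, 1.40, 0.47 and 0.07 for HP4 and -0.45, 0.01, 0.04 and -0.17 for HP3 (0.73, adjusted p = 0.0155). BomBc3, a Bomanin gene, differed by 0.71 (adjusted p = 0.0488). The plasmid-borne HP4 gene gave 1.67, and ATPsynC (-0.65, adjusted p = 0.0299) and Mlc2 (-0.60, adjusted p = 0.0425) lay on the other side. Leaving out 1 of the 15 arrays at a time ended the call in 9 fits for DptB, 10 for BomBc3, 7 for ATPsynC, 9 for Mlc2, 3 for HP4 and 2 for asrij.

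Without the 2 doubted arrays the difference was above 0 at 22 probes (4.35%, against 4.28% of all probes) and below 0 at 1 (against 8.44%). With arrays scaled to one spread it was above 0 at 1 (against 0.171% of all probes) and below 0 at 0 (against 2.46%). The median difference was then 0.07.

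After knock-down of HP1, HP3 was a little lower at most of these probes, and few passed the test singly. The HP3 medians over the set were 0.05, -0.08 and 0.17 after HP1 knock-down and 0.37, 0.42 and 0.33 after white knock-down, and these do not overlap. The fitted difference had a median of -0.33, against -0.04 over all probes. All 3 HP1 knock-down arrays lay below all 3 white arrays at 225 of 511 probes (44.0%, against 18.5% of all probes), and all above at 40 (7.83%, against 23.5%). By limma, 7 probes rose (1.38%, against 7.43%) and 2 fell (0.395%, against 0.443%).

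The probes high for both proteins had a median difference of -0.66, with 72.5% not overlapping downwards, and those high for HP1 alone had 0.04 with 14.9%. HP3 after white knock-down was itself higher at the probes high for both (median 1.23) than over the set (0.36). Within tertiles of gene length, the medians of the set were -0.34, -0.27 and -0.31, from the shortest to the longest tertile, and those of the other probes 0.05, 0.03 and -0.07.

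With only these 6 arrays fitted, 102 probes fell (against 7.07% of all probes) and 30 rose (against 16.9%). With arrays scaled to one spread 10 fell (against 0.926%) and 7 rose (against 9.01%). At an unadjusted p under 0.05, 38 were below 0 (7.51%, against 3.46% of all probes) and 18 above (3.56%, against 14.9%).

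The 2 genes that fell are neighbours on arm 2R. CG46298 read 0.76, 0.62 and 0.67 for HP3 after white knock-down and -0.13, -0.58 and -0.26 after HP1 knock-down (difference -1.0, SE 0.27, adjusted p = 0.016). Ndg read 1.32, 0.53 and 0.46 and then -0.49, -0.72 and -0.22 (-1.25, SE 0.38, adjusted p = 0.0363). In both genes the groups do not overlap. Leaving out 1 of the 6 arrays at a time ended the call of CG46298 in 2 fits and that of Ndg in 4. CG18649 had the next lowest p among those below 0 and did not pass (-0.77, adjusted p = 0.1).

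Among the genes that rose was a proteasome gene, Prosalpha3, an alpha subunit of the proteasome core. It read 0.56, 0.33 and 0.42 after white knock-down and 1.75, 2.49 and 1.42 after HP1 knock-down (difference 1.45, SE 0.23, adjusted p = 0.000151). CG14881 read -0.30, 0.35 and -0.10 and then 1.52, 1.93 and 1.40 (1.63, SE 0.24, adjusted p = 8.38e-05). CG31917 read 0.50, 0.28 and 0.01 and then 1.50, 2.46 and 1.67 (1.62, adjusted p = 0.000242).

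CG5569 (1.21, adjusted p = 0.029) and CG17600 (1.15, adjusted p = 0.0327) rose as well. In the first 3 genes every HP1 knock-down array was above every white array, and replicate 2 was the highest. The calls of these 3 genes were kept with any 1 of the 6 arrays left out, and those of CG5569 and CG17600 were each lost in 5 of the 6 fits. At Prosalpha3 HP3 was 0.25 ± 0.25 (SD, n = 4) in cells with no knock-down.

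HP6 was lower after HP1 knock-down too, with no probe of the set passing. With 2 arrays in each group the test had little power: on simulated data it recovered 17 of 100 probes with a log2 change of 1. The absence of calls therefore does not show that single probes stayed the same. Its medians over the set were -0.15 and -0.20 after HP1 knock-down and 0.14 and -0.03 after white knock-down. Both HP1 knock-down arrays lay below both white arrays at 210 of 508 probes with all values (41.3%, against 18.0% of all probes) and above at 28 (5.51%, against 22.2%). The fitted difference had a median of -0.23 against 0.01 over all probes. By limma 0 probes rose and 0 fell (0% and 0.0201% of all probes), while at an unadjusted p under 0.05 2 were above 0 (0.395%, against 1.03%) and 9 below (1.78%, against 0.715%).

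**Figure D4:**
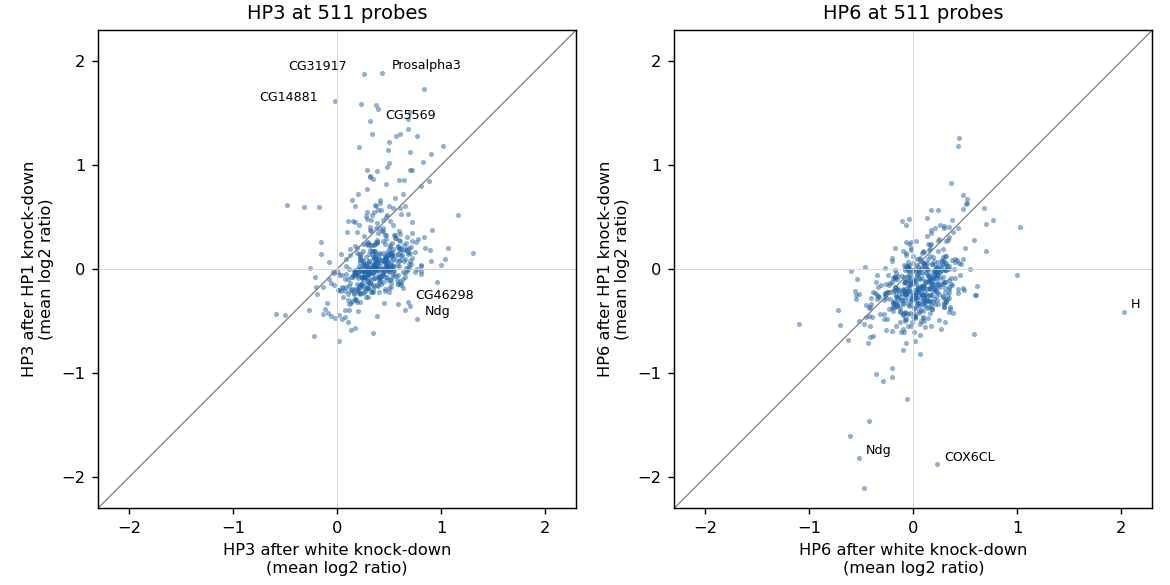
Each point is 1 probe, with its mean log2 ratio after white knock-down on the horizontal axis and after HP1 knock-down on the vertical axis, for HP3 (3 arrays each) and HP6 (2 arrays each), and a line where both are equal. Most points lie below the line, while Prosalpha3, CG14881 and CG31917 lie far above it for HP3. The HP3 mean was lower after HP1 knock-down at 83.0% of the probes, against 53.4% of all probes and 93.2% of those high for both. For HP6 the shares were 77.6%, 47.9% and 73.0%, in the same order.

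The lowest values for HP6 rested on few arrays. COX6CL, a cytochrome c oxidase subunit 6C-like gene, read 0.35 and 0.10 after white knock-down and -3.35 and -0.40 after HP1 knock-down (difference -2.10, SE 0.49, adjusted p = 0.278). Without replicate 2 of the HP1 knock-down the difference was -3.63 (adjusted p = 1.13e-06), which compares 1 array whose spread is taken from the other groups. The Notch pathway corepressor H, Hairless, read 3.51 and 0.54 and then -0.35 and -0.48 (-2.44, adjusted p = 1.0).

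Ndg was lower for HP6 as well, at -0.49 and -0.56 after white knock-down and -1.92 and -1.71 after HP1 knock-down (-1.29, adjusted p = 1.0). CG31997 on chromosome 4 had differences of 0.82 and 0.76 at its 2 probes (adjusted p = 1.0). The probe readings after HP1 knock-down were 1.15 and 1.38 at one and 1.09 and 1.28 at the other, above the 0.71 and 0.18 and the 0.70 and 0.15 after white knock-down. None of these passed.

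No single probe passed for a difference between the change in HP6 and that in HP3 by limma, with 0 calls in either direction (0% of all probes). At an unadjusted p under 0.05, 1 probe was above 0 (0.198%, against 0.634% of all probes) and 10 below (1.98%, against 4.39%). The median of this difference was 0.07. CG14881 had the lowest p below 0, at -1.34 (SE 0.38, adjusted p = 0.489), and CG12702 (-1.41) and Prosalpha3 (-1.05) followed.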

How the data were processed

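Per the labels, the values come from 2-colour cDNA arrays of Dam-methylated genomic DNA from Kc167 cells. The authors deposited log ratios, read here as log2 of fusion over Dam. The base is not given: base 10 is excluded by the range, base e is not, so sizes depend on that reading and tests do not. The sources used here give no spot intensities, background correction, normalisation or build, and the signal of a spot above its background cannot be stated.

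The model was limma 3.58.1 in R 4.3.3 with 11 group means and a dye term, fitted to 35 median-centred arrays and 9934 probes that each group had read on 2 or more arrays. It had 23 residual degrees of freedom and two-sided p-values adjusted by Benjamini-Hochberg over all probes at 0.05. Levels "fitted" are dye-corrected, and array values and means ± SD are not. On simulated data with independent errors, the procedure recovered 91 of 100 probes with a log2 change of 1 for HP5. For the HP3 and HP6 knock-down differences it recovered 56 and 17 of 100. In deviations from the group means, same-numbered arrays of the HP3 knock-downs correlated at 0.101, 0.0646 and 0.243, and at 0.167, 0.205 and 0.279 with the dye effect removed, as in the model. On the latter values each array correlated best with its own number, so the replicate numbers of the HP3 knock-downs were read as pairs. The numbers of the 2 HP6 knock-down groups (0.199 with the dye effect removed) and of the other proteins (-0.42 to 0.549) were not. The main model had no term for pairs, so the HP3 knock-down differences above were tested unpaired. The replicate number entered only in the alternative fit with a block, whose effect was shared by all groups. Gene names came from the platform table and RefSeq (Release 6), used for symbols, arms, gene order and gene length only. The set of probes, the gene lists and the rules were chosen with earlier results of these data known. Gene length, clone libraries, bins of Su(var)3-9, arrays that do not overlap and the set with HP1 at most 0.2 on every array were looked at after the data were seen. Named genes are single-symbol probes: the 10 highest for Su(var)3-9, up to 5 highest and lowest that passed in each comparison (3 of lowest p where fewer than 3 passed), those next to the limits, list members, genes with several probes, the longest runs of neighbours and the fusion genes. A few were added after their values were seen (the unnamed highest probe and the examples within lists). Tried besides were other membership rules, a replicate block, complete probes, single arrays left out, only the arrays compared, scaling to one spread, and leaving off the centring or the dye term.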

Additional observations from a re-analysis of the deposited data

Results flagged for a closer look

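Rsph9, a radial spoke protein of cilia and sperm tails, was below 0 for HP4 with a fitted level of -0.60 (limma, adjusted p = 0.0492), but its 4 HP4 arrays read -0.03, -2.70, 0.25 and 0.07. Replicate 2, at -2.70, lay far from the other 3 arrays, and without it the level was 0.06. It was the 1 outlying array among 30 groups of values examined, where chance alone gives about 1 in 20.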

How the results depend on the processing

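Values are percentages of the tested probes of the set that passed: above 0 for a protein, either way for a contrast. HP5 and HP4 passed at larger shares than over all probes in the main fit and without the 2 doubted arrays. The same held with arrays scaled to one spread and with only the arrays compared, though for HP4 alone the margin was 5.68% against 4.44%. Changed membership rules used the main fit, whose shares over all probes are given above. For the other fits the shares over all probes were not worked out. With arrays scaled to one spread, HP3 passed at 22.3%, HP4 at 30.6%, HP6 at 17.6%, HP3 and HP6 in white knock-down cells at 37.5% and 2.37%, the contrast of HP4 and HP5 with HP3 and HP6 at 0.198%, and HP3 after HP1 against white knock-down at 3.36%. With only the arrays compared, HP3 passed at 0% (against 0% of all probes), HP4 at 5.68% (against 4.44%) and HP6 at 24.1% (against 10.3%). Jra passed at 11.2% (57 above, 99 below), where 23.3% of all probes were above 0 and 21.5% below. HP3 in white knock-down cells passed at 59.5% (against 18.8%) and the contrast at 0% (against 0%). The HP3 knock-down difference passed at 25.8%, where 16.9% of all probes rose and 7.07% fell. The difference of knock-downs passed at 0.591%, where 0.181% of all probes were above 0 and 1.38% below. HP6 in white knock-down cells could not be fitted alone. Without the 2 doubted arrays HP6 passed at 0.395% (against 4.78% of all probes). The contrast then passed at 4.55%, where 4.28% of all probes were above 0 and 8.44% below. With complete probes only, HP6 in white knock-down cells passed at 0%. With all 3 Su(var)3-9 arrays at the limit, Jra passed at 2.16% and the HP3 knock-down difference at 0%, and with the mean of Su(var)3-9 HP6 in white knock-down cells passed at 0.683%. With HP1 at most 0.2 on every array, chosen after seeing the data, HP5 passed at 40.8%, HP6 at 12.7%, Jra at 8.45%, HP6 in white knock-down cells at 0%, and the contrast and the HP3 knock-down difference at 4.23% each.

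Leaving out 1 array at a time gave 1.38% to 2.96% for HP3, 32.6% to 51.2% for HP4, 40.3% to 59.1% for HP5, 0.395% (without replicate 3) to 11.9% (without replicate 1) for HP6 with 0.988% without replicate 2, and 1.59% to 2.79% for Jra. It gave 0.198% (without replicate 1) to 2.57% for HP3 and 0% to 0.395% for HP6 in white knock-down cells, 0% to 7.31% for the contrast (the highest without HP6 replicate 3), 0.593% to 1.58% for the HP3 knock-down difference, and 0% to 0.198% for that of HP6 and for the difference between them. Of the named genes, 692 alternative values stayed on their side of the threshold, 139 lost their call, 5 gained one and 1 changed sign (Rsph9 for HP4, from -0.86 to 0.06 with 1 array left out, the last without HP4 replicate 2). For the other changes the cause was not tested.

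With the replicate number as a block, HP6 passed at 3.16%, HP3 and HP6 in white knock-down cells at 2.96% and 0.198%, and the contrast at 4.15%. The HP3 knock-down difference had 7 probes that rose and 2 that fell with and without the block. The block changed no other share by more than 1.5 times. What the brightness of the spots limits could not be measured here.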

Other observations

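Probes whose names begin with M.GATES, which carry no gene name here, were in the set more often than any other clone group: 19 of 30 (63.3%). At these 19 probes the Su(var)3-9 median ran from 0.62 to 1.22 (middle value 0.95) and the HP1 mean from -1.15 to 0.17 (middle value -0.48). HP4 was bound at 7 and HP5 at 6 by limma, where 49.8% and 61.9% of the set and 19.7% and 18.4% of all probes were bound, and no probe was below 0 for either. Jra was below 0 at 2. HP6 means after HP1 knock-down had a middle value of -0.40, against 0.08 after white knock-down. Probes marked ReAmp, 5.87% of the set and 3.12% of all probes, had middle HP4 and HP5 means of 0.69 and 0.91.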
